A study of Mus musculus with 14 samples.

Results

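The 8 genes Cyrib, Sema7a, Ubl7, Tex2, Adam19, Gatad2a, Tspan9 and Entpd1, of 21883 protein-coding genes with coordinates, were chosen by their H3K27ac peaks, because they lie at or next to stretches of the genome outside the Ets1 locus where wild-type (WT) mouse Th1 cells carried more H3K27ac than cells of the strain labelled Ets1-SE-KO (KO). Every H3K27ac value of these genes is therefore a description, given without a test, and only CTCF and ETS1 were tested. The members lie at 7 loci, because Ubl7 and Sema7a are neighbours on chromosome 9. In the lists as reported both WT libraries were above both KO libraries at 7 of the 8 genes, which follows from how they were chosen. With only peaks of −log10 q of at least 5, by the authors' statistics, this order was found at 0 of them. At Ubl7 the H3K27ac lengths of the genotypes overlapped, and the WT excess next to it lay at Sema7a.

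The data were CUT&RUN peak lists, in which an antibody directs a nuclease to release the DNA around its target. Naive CD4+ T cells from spleens of C57BL/6J mice (WT) and of the strain C57BL/6J-Ets1-SE-KO (KO) were activated with plate-bound anti-CD3 and soluble anti-CD28 and kept for 6 days under 10 ng/mL IL-12 plus 1 ng/mL IL-2, conditions that give Th1 cells. The sources used here do not give the age or sex of the mice, or what the strain name spells out. H3K27ac, CTCF and ETS1 each had 2 libraries per genotype, and IgG had 1. By their titles both WT libraries come from 1 biological replicate, as technical repeats, while KO has 2 biological replicates. SDs of WT are thus technical, and a difference between genotypes cannot be told apart from a difference between that WT sample and other WT samples. Fewer cells with a mark and less of the mark per cell cannot be told apart in such bulk data.

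H3K27ac is acetylation of lysine 27 of histone H3, placed by the acetyltransferases p300 and CBP, and it marks active promoters and enhancers. Broad acetylated domains inside or beside a gene are typical of enhancer clusters. ETS1 is a transcription factor of lymphocytes that binds DNA with a GGAA core, and CTCF is a zinc-finger protein that anchors chromatin loops. A value in kb below is the sequence under peaks in a window of the gene body with 10 kb on each side, in 1 library. It carries no signal height.

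The lists differed in size. The H3K27ac lists of WT covered 21.8 and 21.3 Mb, those of KO 28.01 and 28.5 Mb. The ETS1 lists of KO held 40705 and 9344 peaks, against 14013 and 23419 in WT, so that the ETS1 libraries of KO stand apart from each other. IgG had no peak in the window of any of the 8 genes, but its lists held only 2 peaks in WT and 285 in KO over the genome. Their absence at these genes therefore says little about background there. T cell markers carried H3K27ac in all 4 libraries, with a summed length of 68.9 and 68.6 kb in WT versus 85.9 and 80.9 kb in KO over 7 genes. Of the markers of other cells, no H3K27ac peak was listed at Cd79b, Ms4a1, Pax5, Lyz2, Cebpa, Cd8a, Ncr1, Klrb1c, Klra8, Gata1, Hba-a1 or Hbb-bs. The B cell list summed to 6.48 and 5.12 kb in WT versus 9.72 and 10.5 kb in KO, most of it at Cd79a, and the myeloid list to 7.20 and 6.00 kb in WT versus 7.00 and 9.37 kb in KO, most of it at Csf1r. The CD8 T list summed to at most 1.09 kb in any library, the NK list to at most 0.789 kb and the erythroid list to at most 2.48 kb. Their part in the results was not tested.

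Both WT libraries had more H3K27ac than both KO libraries at 7 of the 8 genes, and no member had the opposite order. Over the 13281 genes with an H3K27ac peak, 6.37% had WT higher and 54% had KO higher by the same rule. The median log2 ratio of KO over WT, with 1 kb added to both means, was -0.86 over the members and 0.18 over all genes with a peak. These counts follow from how the genes were chosen. At Ets1 itself, the locus of the strain label, H3K27ac covered 46.6 and 44.1 kb in WT versus 24.2 and 23.4 kb in KO.

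**Figure D1:**
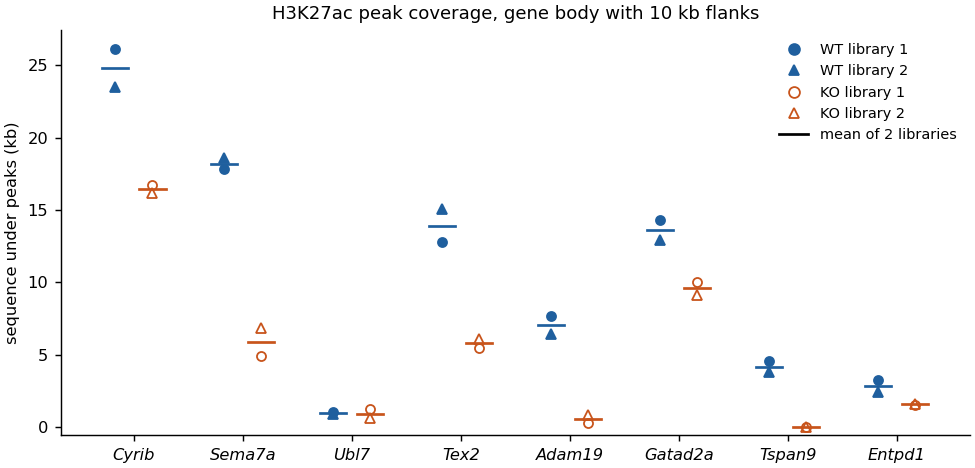
H3K27ac peak coverage of each gene body with 10 kb flanks, in kb of sequence, for the 2 WT and 2 KO libraries, with the mean as a bar. The KO libraries lie below the WT libraries at every gene except Ubl7, and at Tspan9 both are at 0.

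In bins of 25 kb, ranked by WT minus KO length after the 4 bins nearest Ets1, the members held ranks 5 to 10. Cyrib was at rank 5 with 6.95 kb, a bin spanning the end of Ubl7 and the start of Sema7a at rank 6 with 6.42 kb, Tex2 at rank 7 with 5.31 kb, Adam19 at rank 8 with 4.89 kb, a further Sema7a bin at rank 9 with 4.79 kb and Gatad2a at rank 10 with 4.70 kb. The next bin, at Srgap3, which is no member, differed by 4.37 kb. Tspan9 and Entpd1 were not among the largest bins, with their best bins at rank 28 (2.67 kb) and rank 123 (1.33 kb). Counted per gene, as the lower WT minus the higher KO library, Sema7a was at rank 2 of 846 genes with WT higher (10.99 kb), after Ets1, while Gatad2a was at rank 18 (2.93 kb) and Entpd1 at rank 125 (0.864 kb).

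The genes Sema7a, Adam19, Tspan9 and Entpd1 encode proteins of the cell surface. Sema7a, on chromosome 9 from 57939596 to 57962865 (GRCm38, + strand), encodes a membrane-anchored semaphorin that binds integrins and plexin C1 and is found on activated T cells. Its window had 17.8 and 18.6 kb of H3K27ac in WT and 4.91 and 6.85 kb in KO. The groups did not overlap, and the KO mean was 32.3% of the WT mean, the widest difference in kb among the 8 genes (18.2 kb ± 0.509 SD over 2 technical repeats of 1 biological replicate in WT, against 5.88 kb ± 1.37 SD, n = 2, in KO). In WT library 1 a peak ran unbroken for 9369 bp, from 57945970 to 57955338, inside the gene. WT library 2 covered nearly the same sequence with peaks of 5279 and 5454 bp. The KO libraries had only short peaks there, of 154 to 486 bp in library 1 and of 406 to 990 bp in library 2. All of the WT-specific sequence at Sema7a, meaning sequence under peaks of both WT and of neither KO library, belonged to merged regions in which KO also had a peak. Inside the gene those KO peaks were short and weak. With peaks of −log10 q of at least 2 the window kept 15.5 and 12.1 kb in WT versus 1.02 and 1.12 kb in KO. These KO lengths are those of the peaks at the start.

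The start of Sema7a differed as well. Within 2 kb of the listed start, H3K27ac covered 2.58 and 2.35 kb in WT versus 1.03 and 1.12 kb in KO. In the 300 bases around the start the mark covered 300 and 245 bases in WT and 79 and 50 bases in KO. CTCF covered 112 and 144 of the same bases in WT and 205 and 144 in KO, without separating the genotypes. Within 2 kb of the start CTCF did separate them in called length, with 2.06 and 2.10 kb in WT versus 1.32 and 1.38 kb in KO. In the rest of the window CTCF had the opposite order, with 2.46 and 1.92 kb in WT versus 3.28 and 2.79 kb in KO. The CTCF peaks over the start were stronger in KO, with −log10 q of 2.23 and 1.56 in WT versus 5.44 and 4.40 in KO. This promoter is printed because its acetylated width differed while CTCF was called there in all 4 libraries. It runs from 250 bases before to 50 after the start in the RefSeq table of GRCm38.p6, chr9:57939862-57940161, + strand, 5′ to 3′, and in all promoters printed here capitals mark CCGGAA or AGGAAG on either strand, of which this promoter has none.
Sema7a: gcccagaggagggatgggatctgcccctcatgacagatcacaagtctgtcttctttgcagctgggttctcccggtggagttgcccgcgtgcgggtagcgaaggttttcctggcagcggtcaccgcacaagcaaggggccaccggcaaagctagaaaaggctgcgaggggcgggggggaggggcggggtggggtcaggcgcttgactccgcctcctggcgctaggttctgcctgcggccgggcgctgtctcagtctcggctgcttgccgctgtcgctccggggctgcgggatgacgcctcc

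Ubl7, next to Sema7a on chromosome 9 (57910978 to 57929970, + strand), encodes a protein with a ubiquitin-like and a ubiquitin-associated domain, placed here beside its neighbour because of their shared locus. H3K27ac covered 1.07 and 0.928 kb of its window in WT and 1.22 and 0.617 kb in KO. The WT values lay between the KO values. Its acetylated promoter was called in all 4 libraries, as peaks of 632 and 556 bp in WT and 1221 and 617 bp in KO. Only 54 bp of WT-specific sequence fell in its window, at the edge that the Sema7a start peak reaches.

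The other marks at the Ubl7 promoter went in opposite directions. ETS1 peaks covered 98 and 300 of the 300 promoter bases in WT and none in KO, while CTCF covered none in WT and all 300 in both KO libraries. The CTCF peaks were weak, with −log10 q of 1.83 and 2.01, at 80.2% and 77.1% from the top of their lists. The ETS1 peaks of WT had 1.96 and 3.32. With equal numbers of top-scored peaks per library the CTCF peak of KO library 1 at this promoter dropped out, and that of KO library 2 stayed. H3K27ac covered all 300 in each library. The promoter is shown because it carries the motif CCGGAA, an ETS-type sequence, at 3 places, in capitals. The motif stands in 14.9% of the 32851 promoters of the table. Its position is chr9:57910736-57911035, + strand.
Ubl7: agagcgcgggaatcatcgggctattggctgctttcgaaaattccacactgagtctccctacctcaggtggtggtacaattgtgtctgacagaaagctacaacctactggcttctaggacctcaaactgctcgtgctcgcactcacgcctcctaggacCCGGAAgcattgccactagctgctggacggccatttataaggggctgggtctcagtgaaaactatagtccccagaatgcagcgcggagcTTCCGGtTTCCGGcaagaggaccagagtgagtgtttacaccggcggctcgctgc

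Adam19, on chromosome 11 from 46054502 to 46147347 (+ strand), encodes a membrane metalloprotease of the ADAM family, which sheds growth factors and other proteins from the cell surface. H3K27ac covered 7.70 and 6.44 kb in WT versus 0.310 and 0.800 kb in KO. The KO mean was 7.85% of the WT mean, and the groups were far apart. A pair of intragenic domains carried most of it in WT, with peaks of 2413 and 2865 bp that began at 46083187 and 46083322, and of 2434 and 2376 bp that began at 46088897 and 46088895. Of these, KO kept a peak of 310 bp in library 1, and peaks of 446 and 354 bp in library 2. The WT-specific stretch from 46088897 to 46090780 was 1884 bp long and lay 32913 bp from the nearest listed start.

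Adam19 was also the member whose acetylated start was not called in KO. Near its 3 listed starts, the mark covered 1.05 and 0.644 kb in WT, and neither KO library had a peak there. Most of these WT peaks were weak. Their −log10 q was 3.13 and 1.45 at the second start and 0.860 and 1.04 beside the third. CTCF peaks over the second start were called in all 4 libraries, with 234 and 186 of 300 bases in WT and 56 and 186 in KO. That promoter, chr11:46055734-46056033, + strand, is shown since acetylation and CTCF differ in their calls there. It holds neither motif.
Adam19: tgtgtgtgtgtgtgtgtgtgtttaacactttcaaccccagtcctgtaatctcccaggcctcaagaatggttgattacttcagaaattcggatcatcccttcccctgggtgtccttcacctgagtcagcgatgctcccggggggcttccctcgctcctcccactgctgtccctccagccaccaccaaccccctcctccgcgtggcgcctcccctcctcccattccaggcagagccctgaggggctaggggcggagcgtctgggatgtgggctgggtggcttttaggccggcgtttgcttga

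Tspan9, on chromosome 6 from 127961396 to 128143578 (- strand), encodes a tetraspanin, one of the membrane proteins that organise receptors into microdomains. Its H3K27ac was 4.54 and 3.77 kb in WT. KO had no peak in either library, so no ratio is given. All of it was intragenic in WT, and no listed start had a peak. The stretch from 127991684 to 127994270, with 2587 bp, was the longest at any member and the sixth longest WT-specific stretch of the genome, 40792 bp from the nearest start. WT peaks that hold it were of middling strength, at 52.9% and 54.6% from the top of their lists with 3.77-fold and 3.71-fold enrichment.

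Entpd1, on chromosome 19 from 40612366 to 40741602 (+ strand), encodes CD39, which hydrolyses extracellular ATP and ADP on the way to adenosine. H3K27ac covered 3.23 and 2.44 kb in WT versus 1.54 and 1.58 kb in KO. The groups did not overlap, and the difference of means, 1.28 kb, was the smallest among the 7 genes with WT higher. An intragenic peak remained in KO, with 1219 and 1429 bp in WT and 1540 and 1312 bp in KO. A further region, from 40686102 to 40688359, was called in WT only, and both WT libraries shared 0.436 kb of it. With flanks of 50 kb the order of means turned, to 3.36 kb in WT and 4.39 kb in KO. The start of Entpd1 had no H3K27ac peak in WT, and KO library 2 had 1 of 268 bp.

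**Figure D2:**
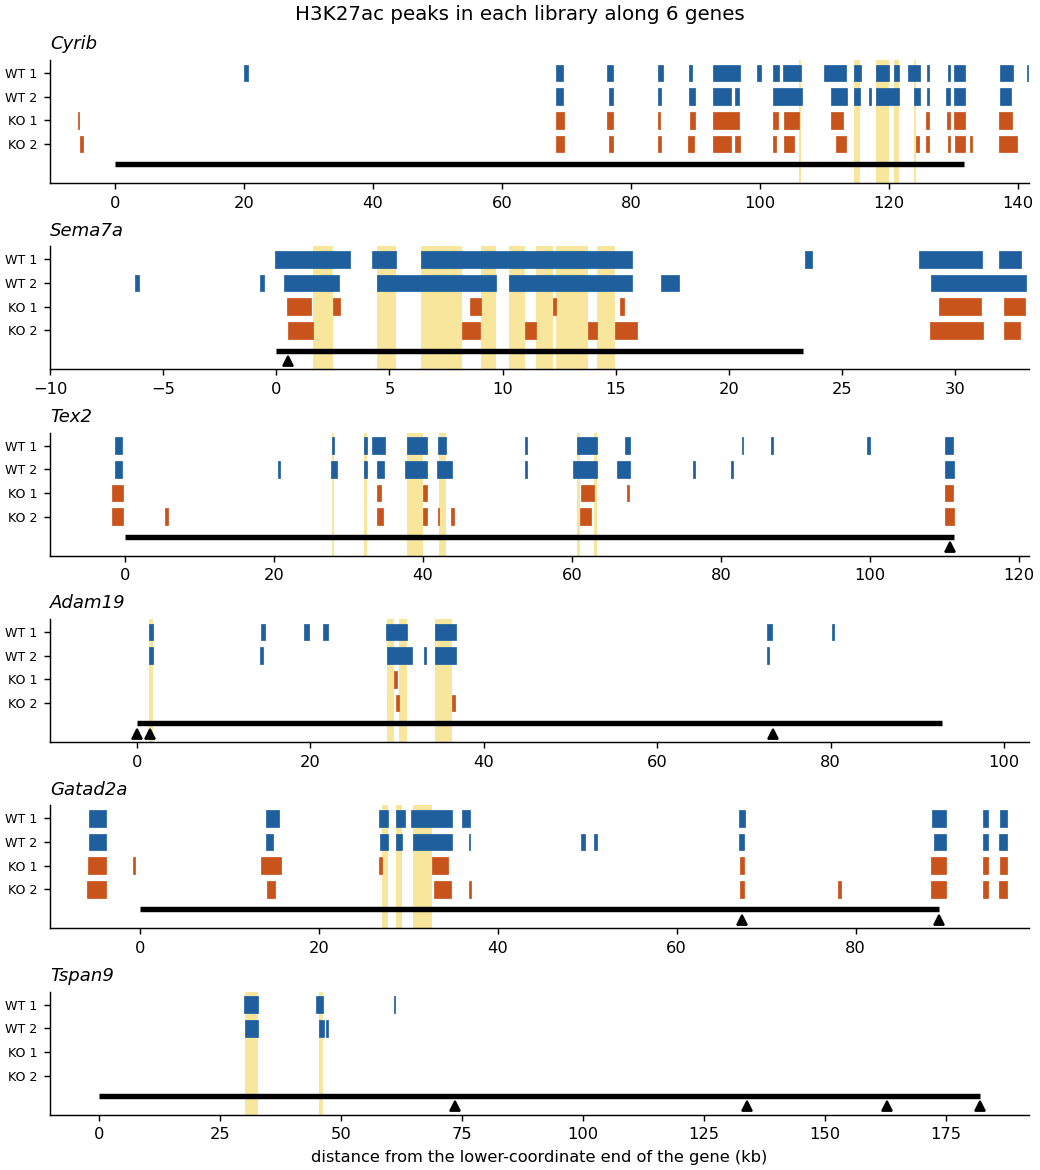
Positions of H3K27ac peaks in the 2 WT (blue) and 2 KO (orange) libraries along 6 of the genes, in kb from the lower-coordinate end of the gene, with the gene as a black bar, listed starts as triangles (Cyrib has none listed) and WT-specific stretches of 300 bp or more shaded. The shaded stretches lie inside the genes, while the peaks at the ends of Cyrib, Tex2 and Gatad2a are present in every library.

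The other genes with more H3K27ac in WT encode proteins inside the cell. Cyrib, on chromosome 15 from 63929094 to 64060778, encodes a protein that binds active RAC1 and restrains RAC1-driven actin remodelling. It had the longest coverage of the 8 genes, 26.1 and 23.5 kb in WT versus 16.7 and 16.2 kb in KO. The KO mean was 66.3% of the WT mean. The difference lay from the WT peak that begins at 64031139 upwards. A WT-specific stretch from 64047093 to 64049185 was 2093 bp long, and others of 956 and 804 bp lay to both sides of it. In KO library 1 no peak was listed between 64042026 and 64054818, and in KO library 2 none between 64042470 and 64053361. By contrast, the strongest peak of the window, at the higher-coordinate end of the gene, had 1617 and 1560 bp in WT and 1617 and 1645 bp in KO, and ranked within the top 4.20% of each library's list. Only 28.1% of the WT-specific sequence at Cyrib belonged to regions also called in KO, so that most of it was in separate regions.

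Tex2, on chromosome 11 from 106502139 to 106613433 (- strand), encodes a lipid transfer protein of the endoplasmic reticulum. H3K27ac covered 12.8 and 15.1 kb in WT versus 5.48 and 6.11 kb in KO, with no overlap. Its start did not take part. Within 2 kb of the start the mark covered 1.07 and 1.20 kb in WT versus 1.09 and 1.17 kb in KO, whereas the rest of the window had 11.7 and 13.9 kb in WT versus 4.40 and 4.94 kb in KO. The longest WT-specific stretch, from 106539953 to 106542154 with 2202 bp, lay 70776 bp from the start. KO peaks of 454 and 487 bp began just beyond its end, at 106542181 and 106542155. All 3 antibodies covered all 300 promoter bases in every library.

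Gatad2a, on chromosome 8 from 69907069 to 69996402 (- strand), encodes a subunit of the NuRD complex, which couples nucleosome remodelling to histone deacetylation. H3K27ac covered 14.3 and 13.0 kb in WT versus 10.0 and 9.15 kb in KO. Near its 2 listed starts the lengths overlapped, with 2.26 and 1.82 kb in WT versus 2.18 and 2.17 kb in KO. In the rest of the window WT had 12.02 and 11.1 kb and KO 7.84 and 6.98 kb. An intragenic WT domain of 4507 and 4382 bp was 1816 and 1906 bp long in KO. The part of this domain called in both WT and neither KO library was mostly a stretch of 2130 bp from 69937557 to 69939686. A further stretch of 116 bp ran from 69941821 to 69941936. WT-specific stretches of 711 and 690 bp lay in the gene at lower coordinates than the domain. At the inner start ETS1, CTCF and H3K27ac peaks were called in each library, and that promoter, chr8:69974334-69974633, - strand, is shown as the remaining member promoter with CCGGAA, at 1 place.
Gatad2a: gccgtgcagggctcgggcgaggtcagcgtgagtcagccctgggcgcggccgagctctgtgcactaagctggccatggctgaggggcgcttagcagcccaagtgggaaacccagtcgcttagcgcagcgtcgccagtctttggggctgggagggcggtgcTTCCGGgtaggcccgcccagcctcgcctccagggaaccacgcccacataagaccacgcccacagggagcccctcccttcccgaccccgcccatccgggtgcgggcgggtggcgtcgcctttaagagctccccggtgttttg

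**Figure D3:**
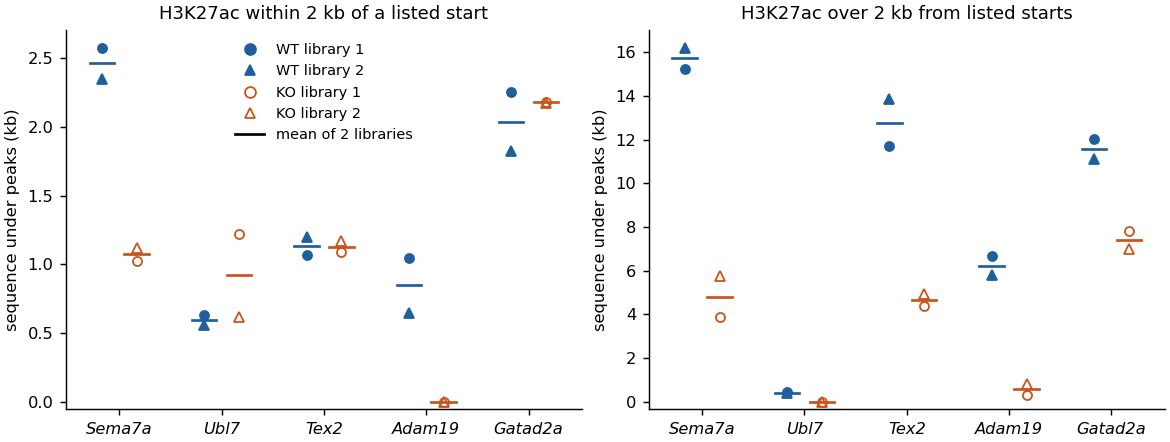
H3K27ac coverage in kb within 2 kb of the listed starts (left) and in the rest of the window (right) for 5 genes with acetylated starts, as points for the 2 WT and 2 KO libraries with their means. At Tex2 and Gatad2a the genotypes overlap near the start and separate away from it, while Sema7a and Adam19 separate in both.

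The WT-specific sequence at the 8 genes came to 31.2 kb in 52 stretches. That was 3.97% of all WT-specific sequence of the genome (786 kb), whereas the same windows held 0.201% of the sequence under H3K27ac peaks of all 4 libraries. The genes with the longest stretches (Tspan9, Tex2, Gatad2a, Cyrib, Adam19 and Sema7a) held ranks 6 and 8 to 12 among 4809 stretches by length, where the median stretch was 72 bp and 52 reached 1 kb. These shares and ranks follow from the choice of the genes by their WT excess in the same lists. Of the stretches, all but 1 of 214 bp in the flank of Sema7a lay inside a member gene. The 54 bp in the Ubl7 window belong to a stretch inside Sema7a. Within 2 kb of a listed start was 5.45% of the members' WT-specific sequence, against 13.6% over the genome, with Cyrib lacking a listed start. Whether the stretches are exonic or intronic was not analysed here.

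Merging the 4 libraries gave 78 distinct H3K27ac regions at the members, of which 12 (15.4%) had a peak in both WT and neither KO library, none had the reverse, and 29 were shared by all. Over the genome 2.7% of regions were WT-only and 7.1% KO-only. The genes were chosen by WT excess in these same lists, so this contrast follows from the choice. Tex2 and Adam19 had 3 WT-only regions each, Cyrib and Tspan9 2 each, and Gatad2a and Entpd1 1 each. Without a WT library the WT-only regions numbered 25 or 26, and without KO library 2 they numbered 16. KO-only regions came to 5 without KO library 1 and 2 without KO library 2. Sema7a had no WT-only region, although its difference in length was the widest, since each of its regions with peaks of both WT libraries also touched a KO peak.

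The WT peaks that held the WT-specific sequence stayed under a −log10 q of 5 by the authors' own statistics. Their −log10 q ran from 0.856 at Tex2 up to 4.64 at Sema7a, with enrichment between 2.99-fold and 5.26-fold. A limit of 5 was passed by 18.6% and 17.9% of all WT H3K27ac peaks. The medians of the WT lists were 2.13 and 2.09. In WT library 1 the strongest of these peaks at Tspan9 (2.04) and Entpd1 (1.91) lay under the median, and the strongest of each other gene or library above it. That of Sema7a in WT library 2, the peak at its start, stood 19.9% from the top. Peaks that held a stretch of 1 kb or more ran from 1.22 at Cyrib in WT library 1 to 4.57 at Gatad2a in WT library 2. Over the genome, 5.08% and 4.12% of WT-specific sequence lay in peaks past 5 of WT library 1 and 2, against 0% at the members. At that limit the WT windows kept 1 peak at Cyrib, 1 at Tex2 and 2 at Gatad2a in each WT library, all at or beyond a gene end, and no member had WT higher. KO was then higher without overlap at Ubl7, with 0 kb in both WT versus 1.22 and 0.617 kb in KO, and at Gatad2a, with 3.43 and 3.28 kb versus 3.61 and 3.72 kb. At Cyrib and Tex2 the KO means were higher by 0.600 and 0.675 kb, with overlapping libraries. With peaks of at least 2, a limit added after the data were examined, the same count as without a limit was found: 7 genes had WT higher, by 12.7 kb at Sema7a and 6.03 kb at Tex2. Depth and background, which bear on whether a peak near the caller's limit is called, are unknown for these libraries, and their part in the result was not tested.

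**Figure D4:**
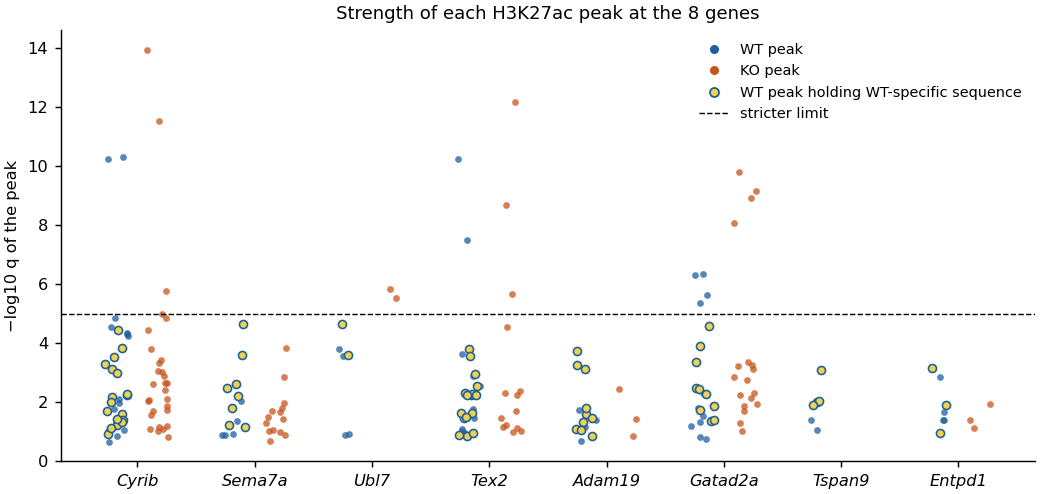
Strength of each H3K27ac peak at the 8 genes as the authors' −log10 q, for both WT (blue) and both KO (orange) libraries, with WT peaks that hold WT-specific sequence in yellow and the limit of 5 as a dashed line. Every yellow point lies under the line. Both genotypes have peaks above it at Cyrib, Tex2 and Gatad2a, and KO alone at Ubl7. At Cyrib and Tex2 KO library 2 has 2 peaks above it, against 1 in each WT library.

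CTCF and ETS1 were not used to choose the genes, so each was tested at the 8 genes. An exact two-sided permutation test of 2 libraries against 2 cannot give a p under 0.333, so none of the 16 tests could reach 0.05. The WT arm is moreover 1 biological replicate in 2 technical repeats, so these p-values compare libraries and say nothing of the spread between WT mice. After Benjamini-Hochberg adjustment over all genes the smallest of these exact p-values was 0.562 for CTCF and 1 for ETS1. The values below are therefore orders of libraries, not called differences.

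The order of CTCF was mixed. Both WT libraries were above both KO libraries at 2 of the 8 genes, against 3.02% of 16069 genes with a CTCF peak, and below them at 4, against 56.3%. Limited to equal numbers of top-scored peaks per library, the lists gave WT higher at 3 (Sema7a, Adam19 and Tspan9) and KO higher at 2 (Ubl7 and Gatad2a). The median log2 ratio of KO over WT was 0.20 over the members and 0.21 over all genes. At Cyrib CTCF covered 1.57 and 1.21 kb in WT versus 2.61 and 2.48 kb in KO. At Gatad2a it covered 3.61 and 3.74 kb in WT versus 5.99 and 6.94 kb in KO, the widest difference of the 8, with a KO mean of 176% of the WT mean. With equal numbers of peaks Gatad2a had 3.61 and 3.74 kb in WT versus 5.80 and 6.94 kb in KO, while Cyrib overlapped, with 0.906 and 1.21 kb in WT versus 2.20 and 0.725 kb in KO. Entpd1 had 1.80 and 1.43 kb in WT versus 2.07 and 2.17 kb in KO, and Ubl7 0.624 and 0.591 kb in WT versus 1.24 and 1.23 kb in KO, both without overlap. With equal numbers of peaks the Entpd1 libraries overlapped and their means differed by 0.0070 kb, and the Ubl7 difference went from 0.625 to 0.337 kb.

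The opposite order was seen at Adam19, where CTCF covered 2.92 and 3.29 kb in WT versus 2.30 and 2.13 kb in KO, and at Tspan9, with 6.26 and 6.27 kb in WT versus 6.12 and 4.64 kb in KO. With peaks of −log10 q of at least 2 or 5 the order was found at neither. At Tspan9 the 2 KO libraries lay further apart than the means of the genotypes. Adam19 and Tspan9 also had the smallest remaining share of H3K27ac, the mark by which the genes were chosen. A link between the 2 marks was not tested. The exact p was 0.333 for all 6 genes whose libraries did not overlap. The Adam19 difference included a site of 166 and 165 bp near 46063481 that was called in WT only. It was 1 of the 51 CTCF regions at the members (1.96%), where 0.58% of CTCF regions over the genome were WT-only. At Tspan9 no CTCF region was called in WT only. Sema7a, with 4.52 and 4.01 kb in WT versus 4.60 and 4.17 kb in KO, and Tex2, with 1.92 and 2.77 kb in WT versus 2.90 and 2.54 kb in KO, overlapped (exact p = 0.667 each). Of the 51 CTCF regions, 25 (49%) were called in all 4 libraries, against 53% over the genome.

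ETS1 coverage varied widely between libraries of a genotype. At each of the 8 genes the range within at least 1 genotype exceeded the difference of the means. Both WT libraries exceeded both KO libraries at Ubl7 alone, 1 of 8 genes against 7.47% of 16470 genes with an ETS1 peak, and at no member was KO higher, against 3.86%. The order hung on single libraries: without KO library 1 WT was higher at 6 of the 8 genes, without WT library 1 at 5, and without KO library 2 KO was higher at 3. At Ubl7 ETS1 covered 0.253 and 0.975 kb in WT versus 0.129 and 0 kb in KO (exact p = 0.333), an order not seen in the gene body alone, with 50 kb flanks or with −log10 q of at least 2 or 5. At Sema7a the lengths were 0.400 and 4.10 kb in WT versus 1.78 and 0.162 kb in KO, at Tex2 0.662 and 5.24 kb in WT versus 2.91 and 1.56 kb in KO, and at Cyrib 2.65 and 4.96 kb in WT versus 3.39 and 1.49 kb in KO. In each of these a single WT library was high and the groups overlapped. Gatad2a had the most even values, 3.92 and 5.45 kb in WT versus 4.42 and 2.76 kb in KO. Adam19, Tspan9 and Entpd1 had at most 0.868, 3.65 and 0.517 kb, each maximum in KO library 1, the longest of the ETS1 lists.

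**Figure D5:**
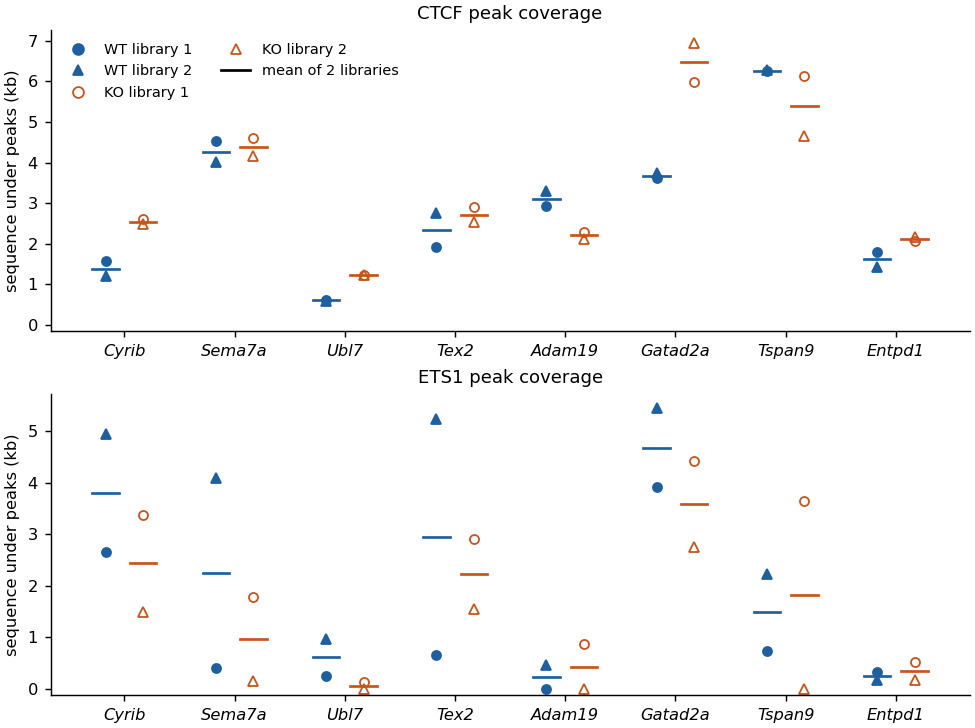
CTCF (top) and ETS1 (bottom) peak coverage of each gene body with 10 kb flanks in kb, for the 2 WT and 2 KO libraries, with means as bars. CTCF lies lower in KO at Adam19 and Tspan9 and higher at Cyrib, Ubl7, Gatad2a and Entpd1, while ETS1 overlaps between genotypes at every gene except Ubl7.

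Little ETS1 was called over the WT-specific stretches. Peaks of both WT libraries covered 0.0288% of the members' WT-specific sequence, 9 bp at Gatad2a, against 2.62% of all WT-specific sequence of the genome. In the sequence acetylated in all 4 libraries the shares were 17.3% at the members and 26.7% over the genome. Counting peaks of either WT library gave 10.6% at the members and 18% over the genome, so the value rests on how far the lists of WT agree. For CTCF the shares of both WT libraries were 7.62% at the members and 6.47% over the genome, all of the former at Sema7a and Adam19. The longest stretch of each of Cyrib, Sema7a, Adam19, Gatad2a, Tspan9 and Entpd1 had no ETS1 or CTCF peak of both WT libraries, and the same held for Tex2, where ETS1 of WT library 2 covered 682 bp.

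ETS1 regions called in WT only were 3 of the 67 at the members (4.48%), against 1.12% of all ETS1 regions of the genome. They were the Ubl7 promoter, a region of 156 and 483 bp outside the gene body of Gatad2a and a region over the innermost start of Tspan9, of 736 and 396 bp. The Tspan9 start had CTCF over all 300 promoter bases in every library and no H3K27ac peak in any. At the outer start of Entpd1 CTCF covered all 300 bases in each library, and ETS1 87 and 75 bases in WT and 300 and 0 in KO.

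Of the 8 genes, 7 had promoters in the RefSeq table, with 14 listed starts. CCGGAA, searched on both strands, stood in 2 of these promoters, those printed for Ubl7 and Gatad2a. AGGAAG, a second ETS-type sequence with the GGAA core, which cannot share that core with CCGGAA, stood in 3, at Adam19, Entpd1 and Tspan9, and in 35.4% of all promoters of the table. Neither is evidence of a bound site.

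Genes of the same pathways came from 8 lists chosen with earlier results known. Of their 93 genes, H3K27ac was higher in KO at 45 and in WT at 9, overlapped at 32 and had no peak at 7, against 54% with KO higher and 6.37% with WT higher among all genes with a peak. Among 11 partners and relatives of Sema7a the median log2 ratio of H3K27ac was 0.01. WT was higher at 3 of them and KO at 3. The former were Sema4d, a further semaphorin of T cells with 29.3 and 26.1 kb in WT versus 21.4 and 23.3 kb in KO, Plxnd1 with 1.07 and 0.770 kb against 0.447 and 0.610 kb, and Sema4a with 3.55 and 3.44 kb against 3.43 and 3.32 kb. The plexin C1 gene, Plxnc1, which encodes a receptor of SEMA7A, had 1.79 and 2.30 kb in WT versus 2.79 and 3.399 kb in KO, the order found at 54% of genes.

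Of the 13 other NuRD subunits beside Gatad2a, 11 had KO higher and 1 had WT higher, with a median log2 ratio of 0.44 against 0.18 over all genes. The exception was Mta3, with 4.19 and 4.31 kb in WT versus 2.49 and 2.86 kb in KO. Chd4, the remodelling ATPase of the complex, had 11.7 and 13.2 kb in WT versus 19.1 and 18.5 kb in KO, and Mta1 8.44 and 8.96 kb in WT versus 13.7 and 15.9 kb in KO. Around Cyrib, 7 of 12 RAC and WAVE genes had KO higher and none WT higher. Cyfip2, a WAVE complex subunit, had 15.6 and 14.2 kb in WT versus 24.2 and 22.9 kb in KO, and Brk1 1.77 and 1.98 kb in WT versus 4.16 and 4.43 kb in KO.

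Among 11 lipid transfer genes beside Tex2, 2 had WT higher (Vapb, with 2.99 and 3.07 kb in WT versus 2.73 and 2.34 kb in KO, and Esyt2, with 1.93 and 1.92 kb against 1.68 and 1.71 kb) and 5 had KO higher. Gramd1b, a cholesterol transporter, had 21.9 and 30.3 kb in WT versus 46.2 and 59.95 kb in KO, and Gramd1a 13.2 and 12.1 kb in WT versus 17.4 and 19.5 kb in KO. Of 10 ADAM proteases and their regulators, Adam9 had WT higher, with 1.39 and 1.49 kb against 1.17 and 1.19 kb, and Adam10 and Adam17, the main sheddases, had KO higher, Adam10 with 1.62 and 1.40 kb in WT versus 3.48 and 3.22 kb in KO and Adam17 with 1.26 and 1.13 kb in WT versus 1.51 and 1.80 kb in KO.

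Of 15 tetraspanins, 1 had WT higher, Cd9 with 2.64 and 3.65 kb in WT versus 2.09 and 1.66 kb in KO, and 6 had KO higher, among them Tspan3, with 3.27 and 2.07 kb against 7.49 and 6.40 kb, and Cd53, with 2.82 and 1.52 kb against 6.42 and 6.21 kb. Among 14 genes of extracellular ATP and adenosine, the only gene with WT higher was Enpp1, which encodes an ectonucleotidase, with 3.06 and 2.64 kb against 2.36 and 2.48 kb, and 6 had KO higher. P2rx7, the ATP-gated channel, had 0.904 and 0.420 kb in WT versus 2.49 and 3.50 kb in KO, and Adk, adenosine kinase, 2.67 and 1.91 kb in WT versus 3.77 and 4.53 kb in KO. None of the 7 relatives of Ubl7 had WT higher and 5 had KO higher, with Nub1 at 7.74 and 4.19 kb in WT versus 10.6 and 9.71 kb in KO.

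Other genes outside the 8 had differences of similar size. The largest by lower WT minus higher KO library were Srgap3, a RAC GTPase-activating protein, with 17.9 and 13.5 kb in WT versus 6.64 and 7.99 kb in KO, then Agpat4, a lipid acyltransferase, with 5.74 and 6.92 kb in WT versus 1.63 and 2.02 kb in KO, and Fyn, a T cell tyrosine kinase, with 27.1 and 27.2 kb in WT versus 22.3 and 23.4 kb in KO. Iqsec1 had 9.32 and 7.03 kb in WT versus 2.89 and 3.38 kb in KO, and Pitpnm2 17.9 and 17.2 kb in WT versus 8.60 and 13.6 kb in KO. By this measure all 5 exceeded Gatad2a and Entpd1, and Srgap3 also exceeded Tspan9.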

How the data were processed

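CUT&RUN peak lists of 14 libraries were used, 12 of them for H3K27ac, CTCF and ETS1 and 2 for IgG. Per the submitters' processing notes, the authors used BWA and GRCm38. Peak naming is that of MACS2 broad peaks, and 1 list belongs to 1 library. The sources used here do not give versions, peak-calling options or any control used in calling. Each deposited list gives a score, a fold enrichment and −log10 p and −log10 q per peak, as the authors' peak caller wrote them. They describe peaks within a list. Read counts are not part of the lists, so depth is unknown and no interval that needs it is given.

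Covered length per gene (body with 10 kb flanks, RefSeq GRCm38.p6) was computed per library in Python 3.11.15 with pandas 2.3.3 and tested on simulated intervals. A region is WT-only with a peak in both WT and neither KO library after merging overlaps of 1 bp or more. Tests were exact permutation tests with Benjamini-Hochberg adjustment over all genes.

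The members and gene lists were chosen with earlier results of these data known. Named genes are the 8 members, Ets1, list genes whose genotypes did not overlap (all with WT higher, up to 2 with KO higher) and the 5 other genes with the largest WT excess. Srgap3 bins and marker genes are named beside them. File names number the CTCF libraries of WT differently from their titles, which were followed. Alternatives were equal numbers of peaks, stricter q-value limits, other flanks, other merging and leaving out each library. Peak sequences and exons were not used here, as a genome sequence was not used.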

Additional observations from a re-analysis of the deposited data

How the results depend on the processing

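Members with WT higher for H3K27ac numbered 7 with equal numbers of peaks, gene bodies alone, 50 kb flanks and −log10 q of at least 2, and 7 to 8 when a library was left out. With 50 kb flanks the 7 were not the same genes. Entpd1 left them, and Ubl7 joined them because its window then took in Sema7a, with 18.5 and 19.1 kb in WT versus 7.25 and 8.82 kb in KO. Those with KO higher went from 0 to at most 1 with 50 kb flanks or a library left out. With −log10 q of at least 5, members with WT higher went from 7 to 0 and with KO higher from 0 to 2, WT-only regions from 12 to 0 and KO-only from 0 to 1, and Cyrib, Tex2 and Gatad2a turned to KO minus WT of 0.600, 0.675 and 0.311 kb, since the filter leaves few of their peaks. With 50 kb flanks KO-only regions came to 5 and Entpd1 turned to 1.03 kb, and with −log10 q of at least 2 WT-only regions came to 7 and KO-only regions to 2. Leaving out a library gave 14 to 26 WT-only and 0 to 5 KO-only regions. For CTCF, members with KO higher were 2 with equal numbers of peaks, and members with WT higher were 0 with either q-value limit. For ETS1, members with WT higher were 2 with equal numbers of peaks, 0 with gene bodies alone, 50 kb flanks or either limit, and 1 to 6 without a library, and members with KO higher were 1 with gene bodies alone and 0 to 3 without a library. The causes were not tested.

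Over all genes, WT was higher for H3K27ac at 846 as reported, 182 and 563 with limits of 5 and 2, and 1418 to 1887 without a library, and KO was higher at 4500 with the limit of 5. For CTCF, WT was higher at 1019 with equal numbers, 295 with the limit of 5 and 872 to 2092 without a library. For ETS1, WT was higher at 394 with the limit of 5 and 1487 to 7373 without a library, and KO at 1217 with equal numbers, 351 with the limit of 5 and 873 to 9610 without a library. The share of WT-specific sequence under peaks of either WT library was 10.6% for ETS1 and 8.38% for CTCF, and it was 0% for both with the limit of 2. At the limit of 5 no WT-specific sequence is left, so no share could be given. Of 72 single-gene H3K27ac values under alternatives, 54 moved by at most 1 SD, 14 by more and 4 reversed.

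No paired analysis was possible because the numbers of the WT libraries mark technical repeats and those of KO biological replicates, and because no result comes from a model fit. Depth is unknown, the WT libraries come from 1 biological replicate, and a peak list records only what was called, which does not show that a stretch outside the KO lists lacks H3K27ac.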
